A study of Mus musculus with 9 samples.

Results

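The 10 genes described here encode proteins that neutrophils store in their granules, and they were taken as the rows of the deposited table with the symbols Mpo, Elane, Prtn3, Camp, Ngp, Ltf, Cd177, Mmp8, Mmp9 and Mmp25, 10 of 52381 genes. They were grouped by the granule that mainly holds the product: primary (Mpo, Elane, Prtn3), secondary (Camp, Ngp, Ltf, Cd177, Mmp8) and tertiary (Mmp9, Mmp25). Their RNA was measured by sequencing of mouse lungs in which acute injury (ALI) had been induced with lipopolysaccharide (LPS), the outer-membrane component of Gram-negative bacteria that sets off acute inflammation. The group coded LPS-ALI held 4 mice with this injury and no TMAO. The group coded TMAO held 5 mice with the same injury that were also treated with trimethylamine N-oxide (TMAO), a small metabolite that liver enzymes make from a product of gut bacteria. All 9 lungs were therefore injured, no uninjured lung was analysed here, and the sources used here give no strain, age, dose or time. The comparison asks how TMAO bears on LPS-induced lung injury, and every difference below is TMAO minus LPS-ALI.

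Neutrophils fill their granules in order as they mature in the bone marrow. Promyelocytes make the primary (azurophil) granules with myeloperoxidase and serine proteases, myelocytes and metamyelocytes make the secondary (specific) granules with lactoferrin and cathelicidin, and band and segmented cells make the tertiary (gelatinase) granules. The mRNA of early cargo is largely gone when a cell leaves the marrow, while the protein stays in the granule until it is released. Factors of the C/EBP family and PU.1 drive this programme. Whole lung holds many cell types, so for every value below fewer neutrophils, neutrophils at another stage and less RNA per neutrophil cannot be told apart.

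Sequence upstream of the start is shown for 5 genes, because the results turn on Camp and Ngp, with Ltf and Mmp8 shown as other secondary granule genes and Elane as a primary one. The stretches come from RefSeq on GRCm38.p6, read 5′ to 3′ on the gene's strand, begin 250 bases before the RefSeq start and stop before the first annotated start of the gene. They lie at chr9:109849618-109849706 (minus strand) for Camp, chr9:110419558-110419746 (plus) for Ngp, chr9:111019042-111019270 (plus) for Ltf, chr9:7558179-7558428 (plus) for Mmp8 and chr10:79886062-79886246 (plus) for Elane. Capitals mark matches to a C/EBP pattern (TTNNGNAA, or TTNCNNAA on the other strand) or to a PU.1 pattern (GAGGAA, or TTCCTC on the other strand).
Camp: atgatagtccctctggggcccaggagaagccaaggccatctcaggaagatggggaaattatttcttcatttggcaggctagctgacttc
Ngp: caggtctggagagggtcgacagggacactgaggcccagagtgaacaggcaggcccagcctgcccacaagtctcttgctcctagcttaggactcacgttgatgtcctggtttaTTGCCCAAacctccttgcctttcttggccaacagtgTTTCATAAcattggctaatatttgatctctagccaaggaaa
Ltf: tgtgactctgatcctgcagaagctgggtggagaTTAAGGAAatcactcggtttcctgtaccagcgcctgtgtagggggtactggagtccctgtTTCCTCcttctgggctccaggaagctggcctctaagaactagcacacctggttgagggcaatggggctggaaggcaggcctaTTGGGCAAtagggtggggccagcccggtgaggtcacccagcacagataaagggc
Mmp8: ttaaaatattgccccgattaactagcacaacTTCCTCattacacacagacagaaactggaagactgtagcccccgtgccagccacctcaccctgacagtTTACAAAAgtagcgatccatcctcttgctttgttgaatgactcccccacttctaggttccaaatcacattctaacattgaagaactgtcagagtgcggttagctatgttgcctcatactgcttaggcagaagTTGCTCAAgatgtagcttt
Elane: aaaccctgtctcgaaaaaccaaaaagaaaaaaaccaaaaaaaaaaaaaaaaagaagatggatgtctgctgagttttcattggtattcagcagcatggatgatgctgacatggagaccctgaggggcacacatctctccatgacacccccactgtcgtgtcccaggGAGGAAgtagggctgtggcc
A RefSeq window was matched for 9 of the 10 genes, and Mmp9 had none. In the 250 bases before the start, the C/EBP pattern occurred in 4 of the 9, with 3 matches in Ngp, 2 in Ltf, 2 in Mmp8 and 1 in Cd177. It occurred in 36.8% of the 32851 windows of all genes. The PU.1 pattern occurred in 7 of the 9, with 2 matches in Mpo and 1 each in Elane, Prtn3, Ltf, Cd177, Mmp8 and Mmp25, against 23.3% of all windows. Camp had neither, and Ngp had no PU.1 match. A match is a run of letters, not a shown binding site.

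Values are FPKM, fragments per unit of gene length and of library size, so levels can be compared between genes. Relative depth ran from 0.381 of the deepest library in TMAO replicate 5 to 1 in LPS-ALI replicate 3, and TMAO replicate 5 had 8846 genes at an FPKM of 1 or more, where the other libraries had 11158 to 12239. LPS-ALI replicates 3 and 4 carry library codes that begin with X and all others codes that begin with B, so the code and the group cannot be fully told apart, and results are also given without those 2 libraries. LPS-ALI replicate 4 had the lowest summed alveolar type 2 markers, 1061 FPKM against 4741 to 13850 in the others, and the highest summed erythroid markers, 2326 against 124 to 291. The labels name lung while their extraction wording names platelets: all 6 alveolar type 2 markers were tested, and the 5 platelet markers summed to 18.6 to 75.0 FPKM. Of 11817 tested genes, those at an FPKM of 1 or more in 4 or more libraries, none passed an adjusted p of 0.05 in limma (smallest 0.382), and 396 had an unadjusted p under 0.05, 346 of them lower in TMAO lungs and 50 higher. That split was 437 lower and 362 higher with median-of-ratios scaling and 450 and 441 with quantile normalization. The median gene was shifted by -0.17 on the log2 scale, or by 0.05 without TMAO replicate 5, so differences are given relative to the median tested gene of each library unless they are called unshifted.

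Among the granule genes, the lungs of TMAO-treated mice held less Camp and Ngp mRNA on average, to 0.267 and 0.391 of the LPS-ALI mean in unshifted FPKM. Relative to the median gene, the log2 differences were -1.45 for Camp and -1.12 for Ngp. The other secondary granule genes, the gelatinase gene Mmp9 and Mmp25 had group ranges that lay largely over each other, and Mpo and Elane were near 0 in both groups. No granule gene passed the adjusted threshold, with a limma adjusted p of 0.998 for each of the 8 that entered the test, so the Camp and Ngp differences are not calls. The share of all genes past that threshold was 0%.

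Camp encodes cathelicidin, an antimicrobial peptide precursor made at the myelocyte stage (ENSMUSG00000038357, chr9:109847379-109849617, minus strand). Camp had 51.5, 52.0, 12.8 and 23.1 FPKM in LPS-ALI replicates 1 to 4. In TMAO replicates 1 to 5 Camp had 6.23, 8.07, 12.9, 9.82 and 9.48 FPKM. The B-coded LPS-ALI lungs stood highest and LPS-ALI replicate 3 lay just under TMAO replicate 3, which is the only overlap. The means were 34.8 ± 19.96 (SD, n = 4) and 9.29 ± 2.44 (SD, n = 5). The unshifted log2 difference was -1.62 ± 0.43 (SE), with an unadjusted limma p of 0.00166. Relative to the median gene it was -1.45 (exact two-sided permutation p = 0.0397 over 126 splits, adjusted p = 0.523 over all tested genes), and 4 of the 5 TMAO values, all but replicate 5, were under the lowest LPS-ALI value. With 1 library dropped the exact permutation p was 0.0286 without TMAO replicate 5 and 0.0536 to 0.0857 without any other. The LPS-ALI group spread over a far wider range than the TMAO group, with its B-coded lungs at the top and its X-coded lungs at the bottom of it.

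Ngp encodes neutrophilic granule protein, a secondary granule protein with a cystatin-like fold that is related to cathelicidins (ENSMUSG00000032484, chr9:110419747-110423012, plus strand). Ngp was the most abundant of the 10, with 443, 434, 144 and 349 FPKM in LPS-ALI replicates 1 to 4. In TMAO replicates 1 to 5 it had 111, 165.9, 150.1, 175 and 68.7 FPKM. LPS-ALI replicate 3 lay inside the TMAO range and the other 3 LPS-ALI lungs were well above it. The means were 343 ± 139 (SD, n = 4) and 134 ± 44.1 (SD, n = 5), with an unshifted log2 difference of -1.30 ± 0.39 (SE) and an unadjusted limma p of 0.00444. On the log2 scale relative to the median gene all 5 TMAO lungs, at 4.06 to 4.39, lay below all 4 LPS-ALI lungs, at 4.41 to 5.89. That difference was -1.12 (exact permutation p = 0.00794, the smallest that 126 splits allow, adjusted p = 0.354). The margin between the groups was 4.39 against 4.41, and LPS-ALI replicate 3 supplied the lower edge. The share of all genes with groups apart on this scale was not taken. Of all genes, 4.09% were lower on it with an exact permutation p under 0.05.

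Camp and Ngp moved with each other from lung to lung. The log2 difference of Ngp over Camp was 2.73 to 4.2 in all 9 lungs, and the groups overlapped in it. By root mean square distance between log2 profiles over the 9 libraries, Ngp was the nearest of all tested genes to Camp, at 0.48, followed by Srm (spermidine synthase) at 0.54 and Xlr3b at 0.60, against a median of 1.05 over all genes. The other 6 tested granule genes lay at 0.98 to 1.10 from Camp. These distances include the difference between the groups, so they do not measure variation within a group alone. Camp, Ngp and Ltf lie in that order on chromosome 9, with 570.1 kb and 596.3 kb between neighbours, and Ltf was among those near the median distance. In unshifted FPKM, the marker sums of monocytes, dividing cells and platelets differed between the groups without overlap. The sums of the other cell type marker lists overlapped. The 6 monocyte markers summed to 52.0 to 98.8 FPKM without TMAO and 31.9 to 47.2 with it. The 6 dividing cell markers summed to 6.96 to 15.8 and 3.77 to 6.09, with Birc5, a mitosis regulator, at 2.5 to 4.74 and 1.12 to 1.77 and Mki67, the Ki-67 antigen, at 0.21 to 0.93 and 0.04 to 0.31. The 5 platelet markers summed to 31.2 to 75.0 and 18.6 to 27.4. Most of the monocyte sum came from Ly6c2, at 27.1 to 71.7 and 18.3 to 32.1 FPKM. Most of the platelet sum came from Pf4, at 22.2 to 54.2 and 12.6 to 24.2 FPKM. Each of these genes overlapped between the groups. Relative to the median gene, the mean log2 level of the tested markers overlapped between the groups in all 3 lists. It was 0.36 to 0.73 and -0.35 to 0.78 for monocyte markers. For dividing cell markers it was -1.87 to -0.82 and -2.31 to -0.98, and for platelet markers -0.37 to 0.30 and -1.22 to -0.09. Birc5 was the 1 tested dividing cell marker without overlap in FPKM, against 1.36% of all genes that were lower without overlap. The part of these cells in the Camp and Ngp differences was not tested.

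Ltf encodes lactoferrin, the iron-binding protein that defines secondary granules (chr9:111019271-111042767, plus strand). Ltf had 76.4, 73.4, 18.2 and 12.4 FPKM in LPS-ALI replicates 1 to 4, and 29.2, 23.3, 32.9, 100.1 and 13.3 in TMAO replicates 1 to 5. The LPS-ALI lungs split into a high pair with B codes and a low pair with X codes, and TMAO replicate 4 was the highest of all. The difference was 0.07 (exact permutation p = 0.905), and it was -0.997 without the X-coded lungs (exact permutation p = 0.143).

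Cd177, a surface glycoprotein of neutrophils that is stored in secondary granules, had 15.6, 18.1, 11.4 and 4.2 FPKM in LPS-ALI replicates 1 to 4. In TMAO replicates 1 to 5 it had 7.81, 11.2, 7.12, 15.8 and 2.85 FPKM. The lowest lung of each group was the one that stood apart in the libraries above, LPS-ALI replicate 4 and TMAO replicate 5. The difference was -0.25 (exact permutation p = 0.579). Without the X-coded lungs it was -0.77 (exact permutation p = 0.0476), and without LPS-ALI replicate 4 alone -0.66 (exact permutation p = 0.0179). Mmp8, the neutrophil collagenase, had 88.5, 69.0, 61.2 and 21.7 FPKM in LPS-ALI replicates 1 to 4 and 42.1, 70.7, 23.9, 64.9 and 25.2 in TMAO replicates 1 to 5. The ranges covered each other almost entirely, with a difference of -0.20 (exact permutation p = 0.603), and -0.68 without the X-coded lungs (exact permutation p = 0.143) or -0.64 without LPS-ALI replicate 4 alone.

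**Figure D1:**
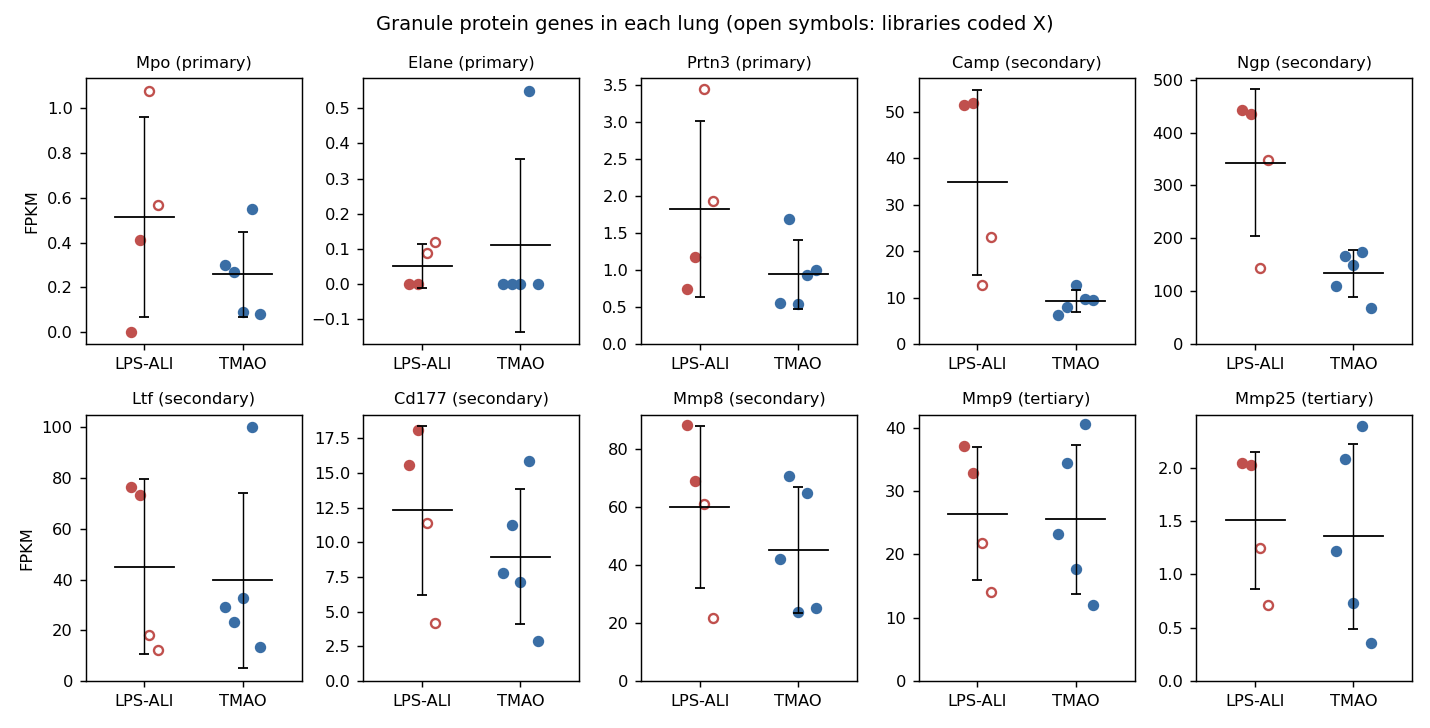
FPKM of each granule gene in the LPS-ALI (red, n = 4) and TMAO (blue, n = 5) lungs, 1 point per lung, with the mean as a horizontal line, the SD as error bars and open points for the X-coded libraries; each panel has its own linear scale. Camp lies at 6.23 to 12.9 FPKM in TMAO lungs and at 12.8 to 52.0 in LPS-ALI lungs, while the ranges of Mmp8, Mmp9 and Mmp25 cover each other.

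The primary granule genes were the lowest of the set. Mpo encodes myeloperoxidase, which makes hypochlorous acid, and had 0, 0.41, 1.08 and 0.57 FPKM in LPS-ALI replicates 1 to 4 and 0.30, 0.27, 0.09, 0.55 and 0.08 in TMAO replicates 1 to 5. Elane encodes neutrophil elastase and was at 0 in 6 of 9 lungs, with 0.09 and 0.12 FPKM in LPS-ALI replicates 3 and 4 and 0.55 in TMAO replicate 4. After scaling by relative depth, those 3 values stood in the ratio 1, 1 and 4, so Elane rested on very few fragments. Mpo reached FPKM of 1 in 1 lung and Elane in 0, so neither entered the test. Prtn3, the serine protease proteinase 3, had 0.74, 1.18, 3.44 and 1.93 FPKM in LPS-ALI replicates 1 to 4 and 0.55, 1.69, 0.54, 0.93 and 1.00 in TMAO replicates 1 to 5. Its highest 2 values were in the X-coded lungs, opposite to the secondary granule genes, and the difference was -0.31 (exact permutation p = 0.532). Scaled by relative depth, its values were 1 to 9.4 times the smallest, and since absolute depth is unknown no counting interval can be given. Prtn3, Mpo and Mmp25 overlap genes annotated on the other strand, and no source used here gives the strand setting of the counting, so reads of the 2 strands may be mixed in them.

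The tertiary granule genes showed no difference larger than the spread between lungs. Mmp9 encodes gelatinase B, which cleaves denatured collagen and basement membrane, and had 37.1, 32.9, 21.8 and 13.97 FPKM in LPS-ALI replicates 1 to 4. In TMAO replicates 1 to 5 Mmp9 had 23.2, 34.4, 17.7, 40.6 and 12.0 FPKM. The group means were 26.4 ± 10.5 (SD, n = 4) and 25.6 ± 11.8 (SD, n = 5), with a difference of 0.10 (exact permutation p = 0.746). Mmp25 encodes a membrane-anchored matrix metalloproteinase of leukocytes and had 2.04, 2.02, 1.25 and 0.71 FPKM in LPS-ALI replicates 1 to 4. In TMAO replicates 1 to 5 it had 1.22, 2.08, 0.73, 2.39 and 0.36 FPKM, a difference of 0.04 (exact permutation p = 0.794). Among all tested genes Mmp25 was the 12th nearest in profile to Mmp9, at a distance of 0.16, and the nearest 3 were Sh3glb2 at 0.11, Acta2 (smooth muscle actin) at 0.12 and Tubb4a at 0.13. The 2 tertiary genes thus followed each other across lungs, at a distance well under the median of 0.55 over all genes.

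Of the 8 tested granule genes, 5 were lower in TMAO lungs relative to the median gene, where 49.3% of all tested genes were lower. Without LPS-ALI replicate 4 all 8 were lower. Their median difference was -0.22, against 0.01 over all tested genes. Camp and Ngp made up the 2 of 8 with an unadjusted limma p under 0.05 and lower in TMAO lungs, against 2.93% of all genes. They were also the 2 of 8 with an exact permutation p under 0.05 relative to the median gene, against 4.09%. In unscaled FPKM, 0 of 8 had groups without overlap in the direction of lower TMAO values, against 1.36%. The genes were chosen with earlier results known, so these counts describe them and support nothing further.

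The level of each granule class was taken as the mean log2(FPKM + 1) of its genes minus the median gene, and these levels were not tested. The secondary level was 3.22, 3.34, 2.20 and 1.76 in LPS-ALI replicates 1 to 4 and 1.88 to 2.26 in the TMAO lungs. The B-coded LPS-ALI lungs lay above every TMAO lung, while the X-coded lungs lay inside or below the TMAO range. The means were 2.63 ± 0.78 (SD, n = 4) and 2.04 ± 0.17 (SD, n = 5), a difference of -0.59, which was -1.23 without the X-coded lungs. The primary level was -2.24 ± 0.46 (SD, n = 4) and -2.28 ± 0.52 (SD, n = 5). Mpo was at 1.08 FPKM or less and Elane at 0.55 or less in every lung. A gene at 0 FPKM enters as minus the median gene of its library, so the primary level says little about RNA amounts. The tertiary level was 0.07 ± 0.50 (SD, n = 4) and 0.14 ± 0.29 (SD, n = 5). Within each lung the secondary level exceeded the tertiary level by 2.12 to 2.88 without TMAO and by 1.604 to 2.25 with it. The 2 ranges overlapped through LPS-ALI replicate 3 and TMAO replicate 3.

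**Figure D2:**
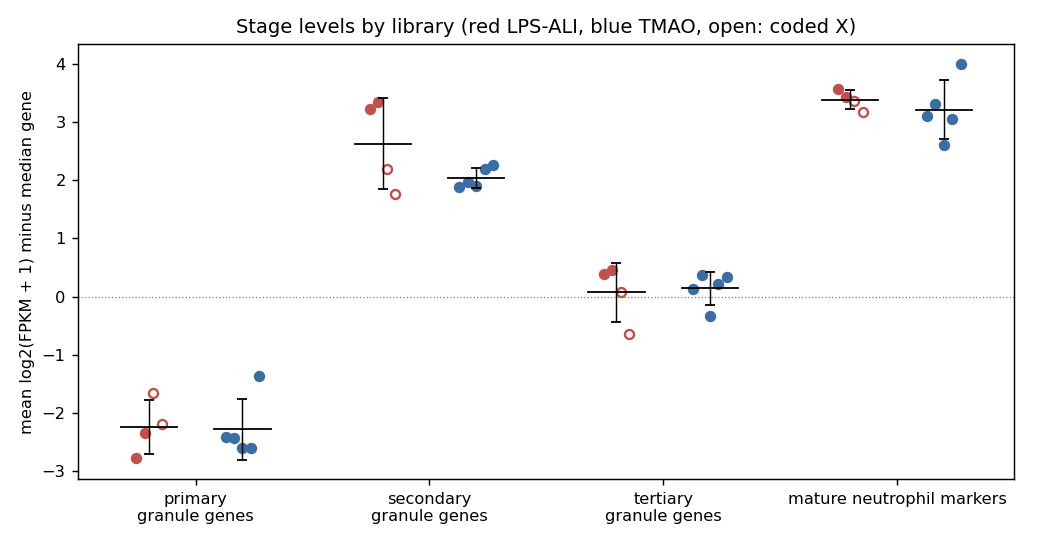
Mean log2(FPKM + 1) minus the median tested gene for primary, secondary and tertiary granule genes and for 14 mature neutrophil markers, 1 point per lung, with mean (horizontal line) and SD (error bars), LPS-ALI in red, TMAO in blue and X-coded libraries open. Secondary levels of the TMAO lungs sit at 1.88 to 2.26, those of the B-coded LPS-ALI lungs at 3.22 and 3.34.

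Within the secondary class the genes did not move as one. The log2 level of Camp stood below that of Mmp8 by 0.77, 0.40 and 2.17 in LPS-ALI replicates 1 to 3 and 0.08 above it in replicate 4. In TMAO replicates 1 to 5 the Camp minus Mmp8 difference was -2.58, -2.98, -0.85, -2.61 and -1.32. Camp was thus furthest below Mmp8 in TMAO replicates 2, 4 and 1, with LPS-ALI replicate 3 next. Ltf minus Mmp8 ran from -1.70 to 0.09 without TMAO and from -1.56 to 0.62 with it, with no separation.

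Set against mature neutrophils, Camp and Ngp stayed the lowest-lying differences of the 8. The reference was the mean log2 level of 14 mature neutrophil markers, among them the receptors Cxcr2 and Csf3r and the calprotectin gene S100a8. All 14 passed the filter, none was at 0 in all lungs, and their sum was 7954 to 20964 FPKM without TMAO and 7898 to 14913 with it. Relative to the median gene the marker level was 3.18 to 3.57 without TMAO and 2.60 to 4.00 with it, so the marker level overlapped. Relative to these markers Camp was at -0.90, -0.58, -2.34 and -1.57 in LPS-ALI replicates 1 to 4 and at -3.00, -3.15, -1.66, -2.96 and -2.35 in TMAO replicates 1 to 5. The difference was -1.28, with 4 of the 5 TMAO values under the lowest LPS-ALI value (exact permutation p = 0.0317, adjusted p = 0.853). With a single library dropped, the exact permutation p was 0.0286 for TMAO replicate 3, 0.0357 for LPS-ALI replicate 3 and 0.0536 to 0.0571 for any other. Ngp was at 2.19, 2.46, 1.06 and 2.30 in LPS-ALI replicates 1 to 4 and at 0.95, 1.05, 1.79, 1.06 and 0.38 in TMAO replicates 1 to 5. Its difference was -0.95, with 3 of the 5 TMAO values under the lowest LPS-ALI value (exact permutation p = 0.0556, adjusted p = 0.913).

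For the other 6 tested genes the difference against neutrophil markers was 0.27 for Mmp9, 0.24 for Ltf, 0.21 for Mmp25, -0.03 for Mmp8, -0.08 for Cd177 and -0.13 for Prtn3, with exact permutation p-values from 0.310 to 0.944. The Mmp8 value depended on the markers used: with Cxcr2 and Csf3r alone as the reference it was -0.47, all 5 TMAO lungs lay under all 4 LPS-ALI lungs, and the exact permutation p was 0.00794, the smallest possible. That p is unadjusted. Cxcr2 and Csf3r were themselves higher relative to the median gene, by 0.39 and 0.14. The shares of all genes lower or apart against these receptors were not taken. Against all 14 markers, 5 of the 8 were lower, where 27.7% of all tested genes were lower. On that scale 1, Camp, had an exact permutation p under 0.05 and was lower, against 0.322% of all genes. Their median was -0.05, against 0.18 over all genes. The count of 5 was 3 without LPS-ALI replicate 2, LPS-ALI replicate 3 or TMAO replicate 5. Cxcr2 had 14.9 ± 7.22 FPKM (SD, n = 4) and 16.8 ± 7.27 (SD, n = 5), and Csf3r had 34.8 ± 16.4 and 35.5 ± 19.5, which placed both receptors among the 4 of 14 markers that were higher relative to the median gene. The other 10 were lower, with a median of -0.17 over the 14 and 1 with an unadjusted limma p under 0.05 (2.93% of all genes were lower at that p). That 1 was Il1r2, the decoy receptor for interleukin-1, at 63.0 ± 22.8 and 34.0 ± 10.04 FPKM. Its limma p was 0.0297 unadjusted and 0.998 adjusted. Trem1, an amplifier of myeloid activation, had 7.98 ± 1.92 and 5.31 ± 2.51 FPKM, and Hdc, the histamine-forming enzyme, 38.1 ± 15.1 and 21.4 ± 7.59. Il1r2, Trem1 and Hdc were named after their values were seen. Ly6g, the surface antigen of mouse neutrophils, had 9.58 ± 5.45 and 4.75 ± 2.03 FPKM, with overlap. S100a8 had 5773 ± 2402 and 4588 ± 1363 FPKM, and Retnlg, a resistin-like gene of mature neutrophils, had 493 ± 222 and 516 ± 174.

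**Figure D3:**
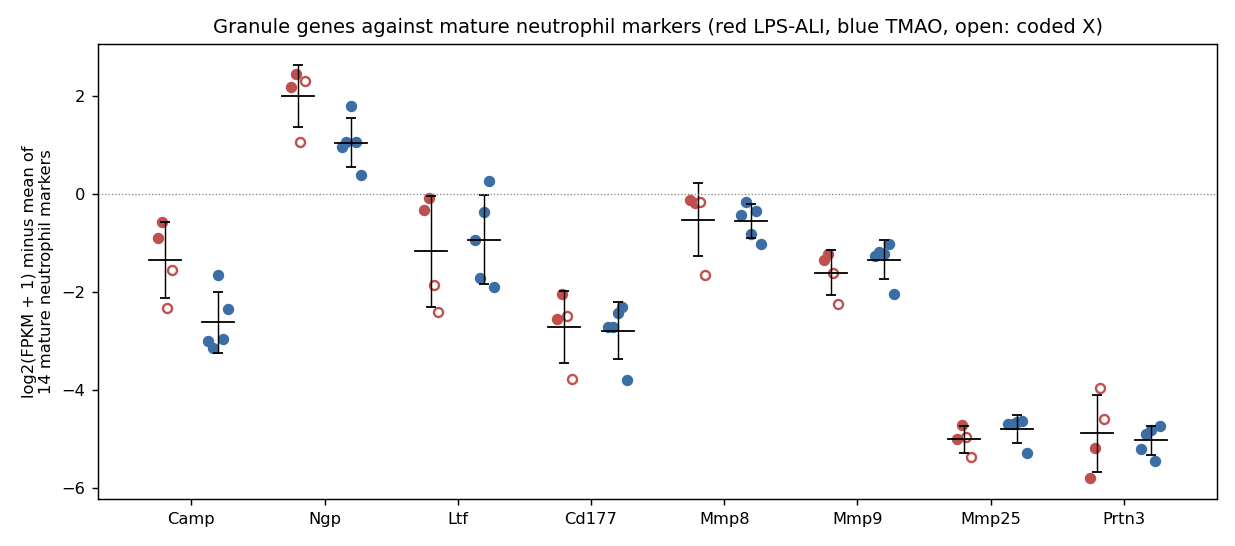
log2(FPKM + 1) of each tested granule gene minus the mean of 14 mature neutrophil markers in the same lung, 1 point per lung, with mean (horizontal line) and SD (error bars), LPS-ALI in red (n = 4), TMAO in blue (n = 5), X-coded libraries open. Camp has 4 of 5 TMAO points under the lowest LPS-ALI point, while Mmp8 and Mmp9 overlap.

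With the X-coded lungs left out, 2 LPS-ALI lungs remained against 5 TMAO lungs, and the smallest p that the 21 splits allow is 0.0476. The difference was then -2.16 for Camp and -1.55 for Ngp, each with an exact permutation p of 0.0476, so both were larger among the B-coded lungs than over all 9. Against the neutrophil markers they were -1.89 and -1.28, again at 0.0476. Mmp9 and Mmp25 were -0.33 and -0.22 relative to the median gene there, opposite in sign to the values over all 9 lungs. No value within the X code can be had, since both X-coded lungs are LPS-ALI.

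**Figure D4:**
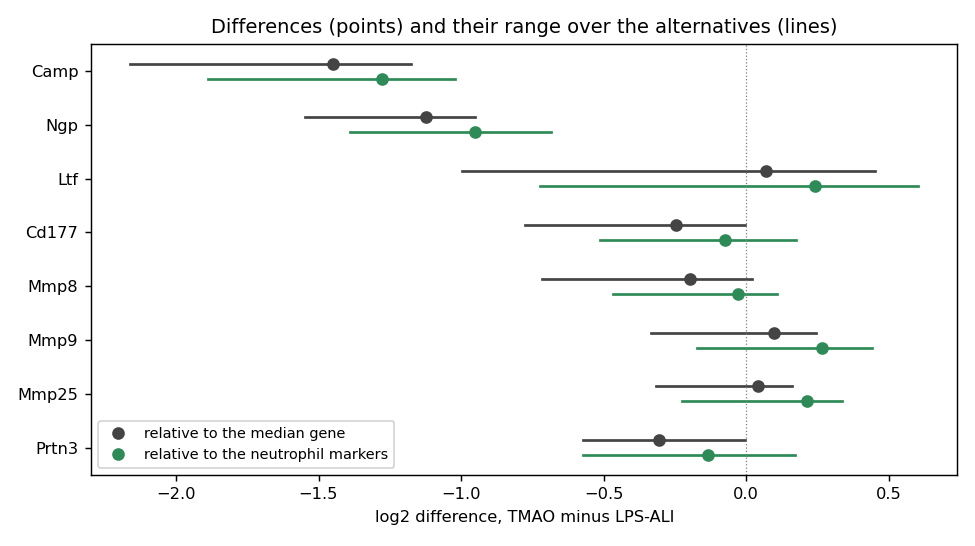
log2 difference (TMAO minus LPS-ALI) of each tested granule gene relative to the median gene (grey) and to the mature neutrophil markers (green); points are the values as reported and lines run from the lowest to the highest value over the alternative analyses. Camp and Ngp stay below 0 on both scales, from -2.16 to -1.17 and from -1.55 to -0.95 relative to the median gene, and the lines of the other genes reach or nearly reach 0.

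Over all 9 lungs the order of mean FPKM was Ngp (227), Mmp8 (51.9), Ltf (42.1), Mmp9 (25.9), Camp (20.6), Cd177 (10.5), Mmp25 (1.42), Prtn3 (1.33), Mpo (0.372) and Elane (0.084). Ngp stood above Mmp8, Cd177 above Mmp25 and Prtn3 above Mpo in all 9 lungs, and Mpo above Elane in 7. Mmp8 and Ltf, Ltf and Mmp9, Mmp9 and Camp, Camp and Cd177, and Mmp25 and Prtn3 were each in that order in 6 of 9 lungs. For Camp the order went with the group. Mmp9 stood above Camp in every TMAO lung but, among LPS-ALI lungs, only in replicate 3. Camp stood above Cd177 in every LPS-ALI lung but below it in TMAO replicates 1, 2 and 4.

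Other genes of the granule programme were read from lists that hold none of the 10. Of 12 further cargo genes, 9 were tested and 8 of these were lower relative to the median gene, with a median of -0.38, 1 (Lcn2) lower with an unadjusted limma p under 0.05, against 2.93% of all genes, and none past the adjusted threshold. Ctsg, the primary granule protease cathepsin G, had 0 to 1.03 FPKM without TMAO and 0 to 0.52 with it, and Bpi was listed at 0 in all 9. Lcn2, which encodes the secondary granule lipocalin that lung epithelium makes as well, had 1298 to 4946 and 783 to 2071 FPKM. Lyz2, the lysozyme of neutrophils, macrophages and alveolar type 2 cells, had 445 to 3575 and 1275 to 2653 FPKM. Olfm4 had 1.61 to 4.63 and 0.28 to 2.10 FPKM, and Fcnb had 0 to 1.24 and 0 to 0.58. Cd63, a membrane protein of primary granules and of lysosomes in most cells, was the 1 gene of the 9 without overlap, against 1.36% of all genes that were lower without overlap, at 150 to 338 and 73.8 to 146 FPKM.

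Of 10 factors of granule assembly and granulopoiesis, 8 were tested and 7 were lower, with a median of -0.23 and 2 lower with an unadjusted limma p under 0.05, against 2.93% of all genes. These 2 were C/EBP factors, named here after their values were seen. Cebpd had 89.5 ± 12.5 FPKM (SD, n = 4) and 48.2 ± 24.4 (SD, n = 5), with an unadjusted limma p of 0.0163 and an adjusted p of 0.998. Cebpb had 176 ± 31.1 FPKM (SD, n = 4) and 107 ± 39.5 (SD, n = 5), with an unadjusted limma p of 0.0329 and an adjusted p of 0.998. Both overlapped in FPKM. Relative to the median gene Cebpb was at 4.15 to 4.84 and 3.72 to 4.12 and Cebpd at 3.43 to 3.71 and 2.07 to 3.34. The groups were apart on that scale by narrow margins, and the share of all genes apart on it was not taken. The exact permutation p was 0.00794 for Cebpb and 0.0159 for Cebpd, with adjusted p of 0.354 and 0.420. Of all genes, 4.09% were lower with an exact permutation p under 0.05 on that scale. Many lung cell types besides neutrophils express Cebpb and Cebpd. Cebpe, the C/EBP factor that secondary granule genes need, had 1.56 ± 0.834 FPKM (SD, n = 4) and 1.55 ± 0.628 (SD, n = 5), with overlapping groups. Gfi1, a repressor needed for neutrophil differentiation, was at 0 to 0.28 and 0 to 0.08 FPKM. Ctsc, the protease that activates the serine proteases of primary granules, had 37.4 to 124 and 16.4 to 100.5 FPKM. Of 8 protease inhibitors, 6 were tested and 4 were lower, with a median of -0.10. Timp1 was the 1 of the 6 that was lower with an unadjusted limma p under 0.05, against 2.93% of all genes. Slpi, which blocks elastase, had 72.4 ± 21.2 and 44.6 ± 9.05 FPKM, with overlap. Timp1, which blocks Mmp9 and Mmp8, had 72.8 ± 40.1 and 26.9 ± 9.91. Its groups overlapped at 31.45 to 127 and 10.8 to 36.6 FPKM, with a limma p of 0.00777 unadjusted and 0.998 adjusted.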

How the data were processed

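RNA sequencing of 9 mouse lungs, 4 coded LPS-ALI and 5 coded TMAO, was grouped as the labels group the samples, whose titles number separate mice. The authors used fastp, HISAT2, SAMtools and featureCounts with build mm10, per the submitters' processing notes, which give no versions. The deposited values are FPKM made by the authors, 1 column per library, and no source used here gives the gene lengths or strand setting. Read totals are unknown, so no counting interval is given. Relative depth was taken from the commonest ratios of low values, which fitted 36 of 36 library pairs within 0.1 log2 units.

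The members, lists, tests and alternatives were chosen with earlier results of these data known. The genes named are the 10 members, 17 companions, list members whose groups do not overlap, and the 3 nearest profiles to Camp, Mpo and Mmp9 (Mpo was not tested and has none). Tests used log2(FPKM + 1), a scale that compresses differences of low genes, for genes at an FPKM of 1 or more in 4 or more libraries. The tests were limma 3.58.1 in R 4.3.3, with trend and Benjamini-Hochberg adjustment over 11817 genes, and exact two-sided permutation over all 126 splits. The limma script was tested on simulated data. Gene positions come from GENCODE on GRCm38, the assembly of mm10, where 52073 of 52381 identifiers matched. Alternatives covered pseudocounts, filters, scaling, variance models, neutrophil references, the replicate block and libraries left out. Python 3.11.15 with pandas 2.3.3 made the tables, and matplotlib 3.10.9 the figures.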

Additional observations from a re-analysis of the deposited data

Results flagged for a closer look

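In 7 of the 62 gene or class levels checked within a group, 1 lung stood apart from the rest by Dixon's criterion. Chance meets it in about 1 of 20 such groups if values are normally spread. A group with all but 1 lung at 0 meets it whatever that value, as for Elane and Epx below. The 7 are therefore not set against that rate. Ltf reached 100.1 FPKM in TMAO replicate 4, against 13.3 to 32.9 in the other TMAO lungs. Elane was 0.55 FPKM in the same lung and 0 in the other TMAO lungs. The primary granule level was -1.37 in TMAO replicate 5, against -2.61 to -2.41 in the others, on the log2 scale relative to the median gene. That lung also had the lowest median gene, and its Mpo and Elane values were 0.08 and 0 FPKM. Ctsg was 0.52 FPKM in TMAO replicate 3, and Olfm4 was lowest at 0.28 FPKM in TMAO replicate 5. Fcnb was 1.24 FPKM in LPS-ALI replicate 4, and Epx, the eosinophil peroxidase, was 0.03 FPKM in LPS-ALI replicate 3 and 0 in the other lungs of that group.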

How the results depend on the processing

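Over 27 alternatives, 477 values were scored as the same, 38 turned sign, 9 counts moved by over 1.5 times and 2 values newly passed. The same meant the direction and side of the adjusted threshold for a gene and the direction alone for a class level. For a count it meant within 1.5 times. No granule gene passed the adjusted threshold over all 9 lungs, so none could be scored as losing it. An unadjusted p that crossed 0.05 was not scored. Camp and Ngp kept their sign in each alternative that gives them a value. Relative to the median gene Camp ran from -2.16 to -1.17 (exact permutation p from 0.0238 to 0.0857) and Ngp from -1.55 to -0.95 (0.00794 to 0.0476). Relative to the neutrophil markers Camp ran from -1.89 to -1.02 (exact permutation p from 0.0286 to 0.0857) and Ngp from -1.39 to -0.69 (0.0179 to 0.2). Besides single libraries left out, the Camp p on this scale was above 0.05 with quantile normalization (0.0556), with the median of the markers (0.0635), without S100a8 and S100a9 (0.0556) and without LPS-ALI replicate 4 and TMAO replicate 5 (0.0857). With library weights, which gave 0.088 to TMAO replicate 5, 0.34 to LPS-ALI replicate 4 and 5.03 to LPS-ALI replicate 2, 51 genes passed the limma threshold. Among them were Camp at -2.17 (limma adjusted p = 0.00518) and Ngp at -1.46 (0.00919). All 8 tested granule genes were then lower relative to the median gene, with Ltf at -0.93, Mmp9 at -0.33 and Mmp25 at -0.32. Leaving out 1 library gave 0 to 3 genes past the threshold, with 1 when LPS-ALI replicate 3 and 3 when TMAO replicate 4 was dropped.

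Leaving out 1 library gave 4 to 8 granule genes lower relative to the median gene and 3 to 6 lower relative to the neutrophil markers. On the first scale the ranges were -0.41 to 0.45 for Ltf, -0.64 to 0.020 for Mmp8, -0.18 to 0.24 for Mmp9 and -0.15 to 0.16 for Mmp25. On the second they were -0.44 to 0.17 for Prtn3, -0.17 to 0.60 for Ltf, -0.43 to 0.18 for Cd177 and -0.40 to 0.11 for Mmp8. Without LPS-ALI replicate 4 and TMAO replicate 5 together Ltf, Mmp9 and Mmp25 were -0.36, -0.21 and -0.22, and Mmp8 was -0.72. Without the X-coded libraries they were -0.997, -0.33 and -0.22, and Ltf and Mmp9 were -0.72 and -0.053 relative to the markers. With Csf3r and Cxcr2 alone as markers all 8 were lower, with Ltf at -0.20, Mmp9 at -0.17, Mmp25 at -0.23 and Mmp8 at -0.47 (exact permutation p = 0.00794). Csf3r and Cxcr2 were higher relative to the median gene, by 0.14 and 0.39. The share of all tested genes lower against them was not taken, so the count of 8 has no background. With no filter Ltf was -0.0029 and Mmp25 -0.031, and Mmp25 was also below 0 at a pseudocount of 0.1 (-0.065), with median-of-ratios scaling (-0.073) and with quantile normalization (-0.042). The cause of these turns was not tested.

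The mouse numbers gave no sign of pairing the lungs. Residuals of equal numbers correlated at 0.064, -0.011, -0.033 and -0.134, and no number matched itself best. So few lungs cannot exclude a pairing. With the number as a replicate block, 0 genes passed, 746 had an unadjusted limma p under 0.05, Camp was -1.64, Ngp -1.08 and Mmp25 -0.0029. Genes with an unadjusted limma p under 0.05 numbered 396 as reported and 1634 with library weights, 848 with no filter, 849 without TMAO replicate 5, 838 without it and LPS-ALI replicate 4, 246 without LPS-ALI replicate 4, 236 without TMAO replicate 1, 237 without mitochondrial and haemoglobin genes and 160 without the X-coded libraries. Unknown absolute depth limits Elane, Mpo and Prtn3 most.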
